A study of Mus musculus with 6 samples.

Results

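The elastic fibre genes followed here are elastin (*Eln*), the microfibril genes *Fbn1*, *Mfap2*, *Mfap4*, *Mfap5* and *Emilin1*, the assembly genes *Fbln5* and *Efemp2*, and the lysyl oxidase genes *Lox* and *Loxl1*. They were taken by gene symbol, which gave 10 of the 41786 symbols in the count files, and all 10 passed the filter on low counts. The set was chosen by name and by the niclosamide against vehicle counts of these same libraries, so the differences below are a description and carry no test of the set or of its genes.

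RNA was sequenced from lesions like those of endometriosis in female C57BL/6 mice, to ask how oral niclosamide, an anthelmintic drug, affects such lesions. Uterus of B6-GFP Positive donors aged 6 weeks was sutured to the peritoneal wall of wild type recipients aged 8 weeks, in a matched stage of the estrous cycle. After 3 days the recipients received either niclosamide at 200 mg/kg body weight daily or vehicle daily, for 3 weeks in each group, and tissue was collected in diestrus. There were 3 niclosamide libraries, each from 1 mouse, and 3 vehicle libraries, of which vehicle 1 was RNA pooled from 4 mice and the others came from 1 mouse each. Tissue derived from the graft was dissected away from that of the recipient, and the counts do not tell donor from recipient cells.

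Elastic fibres give stretch and recoil to arteries, lung, skin and the wall of the uterus. Smooth muscle cells and fibroblasts secrete the soluble elastin precursor, which gathers in small globules, is laid onto a scaffold of fibrillin microfibrils with the help of fibulins, and is then crosslinked by copper-dependent lysyl oxidases. In the uterus these fibres lie mainly in the muscle layer and the vessel walls, and they are remodelled with pregnancy and after birth.

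All 10 genes had a log2 fold change below 0 in niclosamide-treated lesions relative to vehicle, with a median of -0.46. Over all 17364 genes tested the median was 0.02, and 46.3% were below 0. The difference was largest for *Eln*, at 1.45 on the log2 scale below vehicle, whereas the other 9 genes lay between -0.25 and -0.71. The groups did not overlap in 3 of the 10, *Eln*, *Fbln5* and *Mfap4*, each lower with niclosamide; 6.37% of all genes tested had groups apart in that direction. With edgeR (quasi-likelihood, Benjamini-Hochberg adjusted p under 0.05) 0 of 17364 genes (0%) passed, so none of the 10 did. Unadjusted, 1202 genes (6.92%) had p under 0.05, of which those lower with niclosamide made up 3.55% of all tested. Limma-voom called 0, and DESeq2 called 195 (1.22% of those it gave an adjusted p), with *Eln* the single elastic fibre gene among them. DESeq2 called 0.696% of genes as lower. Nothing is read from these counts for the 10 genes, since the same contrast led to their choice.

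Levels in single libraries are given in CPM, which are counts scaled to a common library size with TMM factors, and values with ± are means with the SD of 3 libraries. *Eln* encodes the precursor of elastin, the elastic core of the fibre, and lies on chromosome 5 at 134702596 to 134747367 on the minus strand of GRCm38, the build of all positions here. It had 83.6, 137 and 109 CPM in niclosamide 1 to 3, against 358, 259 and 282 CPM in vehicle 1 to 3. Every niclosamide library was lower than every vehicle library, and the highest niclosamide value was 0.92 below the lowest vehicle value on the log2 scale. The means were 110 ± 26.7 CPM with niclosamide and 300 ± 51.7 CPM with vehicle (SD, n = 3 each), a log2 fold change of -1.45 ± 0.23 (SE), or 2.73 times more in vehicle. Of all genes tested, 160 (0.921%) had a log2 fold change as low as this or lower. The gene was counted at 2460 to 4434 reads in the niclosamide libraries and 8976 to 9817 in the vehicle libraries, so counting error is small beside the spread between animals. *Eln* transcripts are known to be spliced in many ways, which counts per gene do not resolve.

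**Figure D1:**
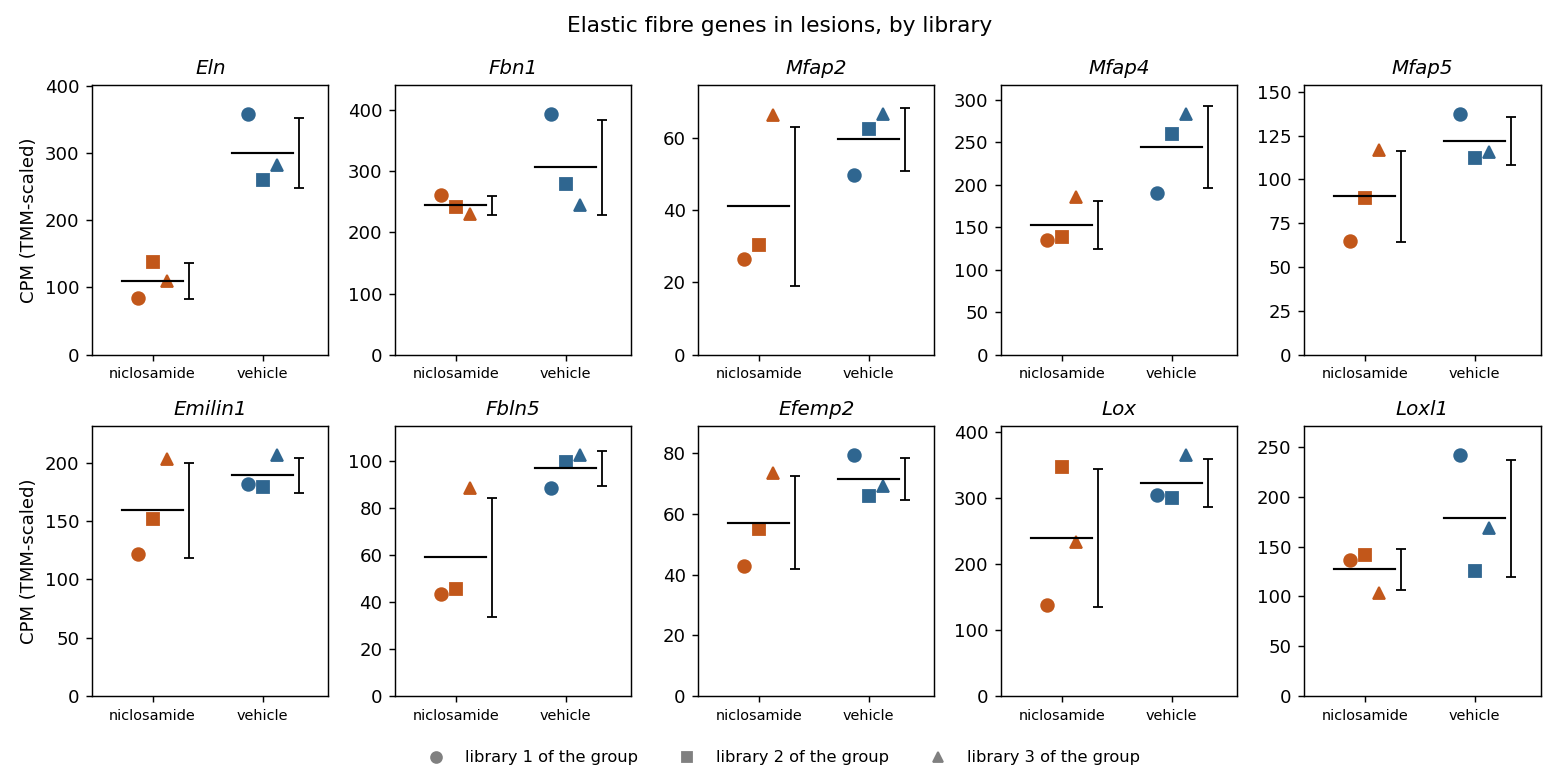
TMM-scaled CPM of the 10 elastic fibre genes, niclosamide on the left and vehicle on the right of each panel. Points are single libraries, with a symbol for each library number, horizontal bars are means, error bars are the SD of 3 libraries, and each y axis starts at 0. *Eln* is at 83.6 to 137 CPM in niclosamide libraries and 259 to 358 CPM in vehicle libraries. In *Fbn1*, *Mfap2*, *Mfap5*, *Emilin1*, *Efemp2*, *Lox* and *Loxl1* the groups overlap.

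The microfibril genes were less far apart. *Fbn1* (chromosome 2, 125300594 to 125506485), which encodes fibrillin-1, the backbone of microfibrils, had 261, 242 and 230 CPM in niclosamide 1 to 3, against 394, 280 and 245 CPM in vehicle 1 to 3. The groups overlapped, since vehicle 3 lay within the niclosamide range and vehicle 1, the pooled library, stood highest. Its log2 fold change was -0.33 ± 0.21 (SE), and without vehicle 1 it was -0.11. With library totals alone its groups did not overlap.

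*Mfap2* (chromosome 4, 141010424 to 141015984) and *Mfap5* (chromosome 6, 122513380 to 122529290) encode the small glycoproteins MAGP-1 and MAGP-2, which bind fibrillins. *Mfap2* had 26.4, 30.5 and 66.3 CPM in niclosamide 1 to 3, against 49.9, 62.5 and 66.8 CPM in vehicle 1 to 3. *Mfap5* had 64.7, 89.4 and 117 CPM in niclosamide 1 to 3, against 137, 112 and 116 CPM in vehicle 1 to 3. In each gene niclosamide 1 and 2 lay below all vehicle libraries and niclosamide 3 lay inside their range. The log2 fold changes were -0.54 ± 0.36 and -0.43 ± 0.23 (SE), and without niclosamide 3 they were -1.06 for *Mfap2* and -0.65 for *Mfap5*, while without niclosamide 1 they were -0.31 and -0.25.

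*Mfap4* (chromosome 11, 61485378 to 61488706) encodes a fibrinogen-related glycoprotein that binds elastin, microfibrils and collagen. It had 135, 139 and 186 CPM in niclosamide 1 to 3, against 190, 260 and 284 CPM in vehicle 1 to 3. The groups were apart, but niclosamide 3 and vehicle 1 differed by only 0.03 on the log2 scale, and with upper-quartile scaling or library totals alone the groups overlapped. The means were 153 ± 28.4 CPM with niclosamide and 245 ± 48.6 CPM with vehicle (SD, n = 3 each), a log2 fold change of -0.68 ± 0.21 (SE).

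*Emilin1* (chromosome 5, 30913381 to 30921279) encodes a glycoprotein of the border between elastin and microfibrils, which also restrains the processing of TGF-beta. It had 122, 152 and 203 CPM in niclosamide 1 to 3, against 182, 179 and 206 CPM in vehicle 1 to 3. Here too niclosamide 1 and 2 were lowest and niclosamide 3 lay inside the vehicle range. The log2 fold change of -0.25 ± 0.21 (SE) was the smallest of the 10; it was -0.10 without niclosamide 1 and -0.45 without niclosamide 3.

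Of the assembly genes, *Fbln5* (chromosome 12, 101746565 to 101819130) encodes fibulin-5, which carries the elastin precursor to microfibrils. It had 43.1, 45.5 and 88.2 CPM in niclosamide 1 to 3, against 88.3, 99.3 and 102 CPM in vehicle 1 to 3. Niclosamide 1 and 2 had about the same low value, and niclosamide 3 lay 0.003 on the log2 scale below vehicle 1, so the lack of overlap rests on the scaling and was lost with upper-quartile scaling and with library totals alone. The means were 58.9 ± 25.4 CPM with niclosamide and 96.7 ± 7.37 CPM with vehicle (SD, n = 3 each), a log2 fold change of -0.71 ± 0.29 (SE) that was -1.11 without niclosamide 3. *Efemp2* (chromosome 19, 5473960 to 5481854) encodes fibulin-4, which brings lysyl oxidase to the elastin precursor. It had 42.8, 54.98 and 73.3 CPM in niclosamide 1 to 3, against 79.4, 65.9 and 69.3 CPM in vehicle 1 to 3. The same pair of niclosamide libraries was low, and the log2 fold change was -0.33 ± 0.21 (SE), or -0.16 without niclosamide 1 and -0.54 without niclosamide 3.

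RefSeq promoter windows on GRCm38.p6, running from 250 bases before a start site to 50 after it, were at hand for 5 of the 10 genes, *Fbn1*, *Mfap2*, *Emilin1*, *Fbln5* and *Efemp2*. They were searched on both strands for the TATA motif (letters TATAAA), the GC box of Sp1-type factors (letters GGGCGG), the AP-1 motif (letters TGANTCA) and the CArG box of serum response factor. None of the 9 windows of these 5 genes held the TATA motif, the AP-1 motif or a CArG box, which 13.6%, 7.81% and 1.63% of all 32817 promoter windows held. The GC box was present in 35.6% of all windows. In the window nearest the annotated gene start it occurred 2 times in *Fbln5*, 2 times in *Efemp2* and 1 time in *Fbn1*, and 0 times in *Mfap2* and *Emilin1*. The start site of the *Emilin1* window lay 405 bases from the annotated gene start, which that window does not hold. In the other genes this distance was 0 to 47 bases. In windows of other start sites the GC box occurred 2 times in *Mfap2*, 5 and 7 times in *Efemp2* and 0 times in *Fbln5*. These *Efemp2* windows, chr19:5474440-5474739 and chr19:5474485-5474784, overlap, so the same matches are counted in both. Matches that overlap each other were counted separately. The windows of *Fbln5*, whose groups were apart, and of *Fbn1*, whose groups overlapped, are shown 5′ to 3′ on the minus strand, with the GC box or its reverse complement in capitals. They span chr12:101819070-101819369 and chr2:125506389-125506688. These matches describe the letters of the windows and say nothing of factor binding.
Fbln5: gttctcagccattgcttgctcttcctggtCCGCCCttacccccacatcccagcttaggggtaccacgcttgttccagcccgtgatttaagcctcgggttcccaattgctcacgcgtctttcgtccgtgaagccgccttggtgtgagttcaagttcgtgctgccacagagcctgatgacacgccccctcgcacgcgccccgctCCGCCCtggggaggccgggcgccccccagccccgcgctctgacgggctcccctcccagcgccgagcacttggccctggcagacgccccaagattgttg
Fbn1: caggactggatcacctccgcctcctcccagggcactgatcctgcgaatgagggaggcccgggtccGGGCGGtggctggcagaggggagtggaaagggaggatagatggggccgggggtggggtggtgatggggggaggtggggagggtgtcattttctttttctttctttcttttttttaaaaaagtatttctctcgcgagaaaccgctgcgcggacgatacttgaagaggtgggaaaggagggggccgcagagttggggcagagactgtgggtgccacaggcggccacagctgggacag

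The crosslinking genes showed patterns of their own. *Lox* (chromosome 18, 52516060 to 52529867) encodes lysyl oxidase, which oxidises lysines of elastin and collagen so that they crosslink. It had 138, 346 and 234 CPM in niclosamide 1 to 3, against 304, 300 and 365 CPM in vehicle 1 to 3. Niclosamide 2, low for the microfibril and fibulin genes, was here within the vehicle range. The log2 fold change was -0.43 ± 0.33 (SE), and ran from -0.81 without niclosamide 2 to -0.16 without niclosamide 1. *Loxl1* (chromosome 9, 58287723 to 58313212) encodes the family member tied most closely to elastic fibre upkeep in mice, and its product binds fibulin-5. It had 136, 142 and 103 CPM in niclosamide 1 to 3, against 242, 126 and 168 CPM in vehicle 1 to 3. The groups overlapped, the vehicle values ranged widely, and the log2 fold change of -0.49 ± 0.27 (SE) was -0.21 without vehicle 1.

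Levels of different genes were compared as FPKM, which divides CPM by the annotated exon length in kilobases. In vehicle libraries *Mfap4* stood first, at 140 ± 27.8 FPKM, with all its libraries above those of every other gene of the set. *Mfap5*, *Eln*, *Lox*, *Loxl1* and *Emilin1* followed at 71.3, 71.2, 65.4, 53.6 and 48.6 FPKM, with overlap between neighbours among them. *Emilin1* was apart from *Efemp2*, the next in the order. *Efemp2*, *Fbn1* and *Mfap2* were at 30.7, 30.1 and 24.99 FPKM, again with overlap between neighbours among them. *Fbln5* was lowest at 15.7 ± 1.198 FPKM, apart from *Mfap2*. In niclosamide libraries the order was *Mfap4* (87.4 FPKM), *Mfap5* (52.8), *Lox* (48.5), *Emilin1* (40.8), *Loxl1* (38.1), *Eln* (26.1), *Efemp2* (24.5), *Fbn1* (24.0), *Mfap2* (17.2) and *Fbln5* (9.58), with overlap between all neighbours except *Mfap4* and *Mfap5*. *Eln* thus stood sixth with niclosamide, against the third place in vehicle, and the other places shifted by 1 or 2 at most.

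**Figure D2:**
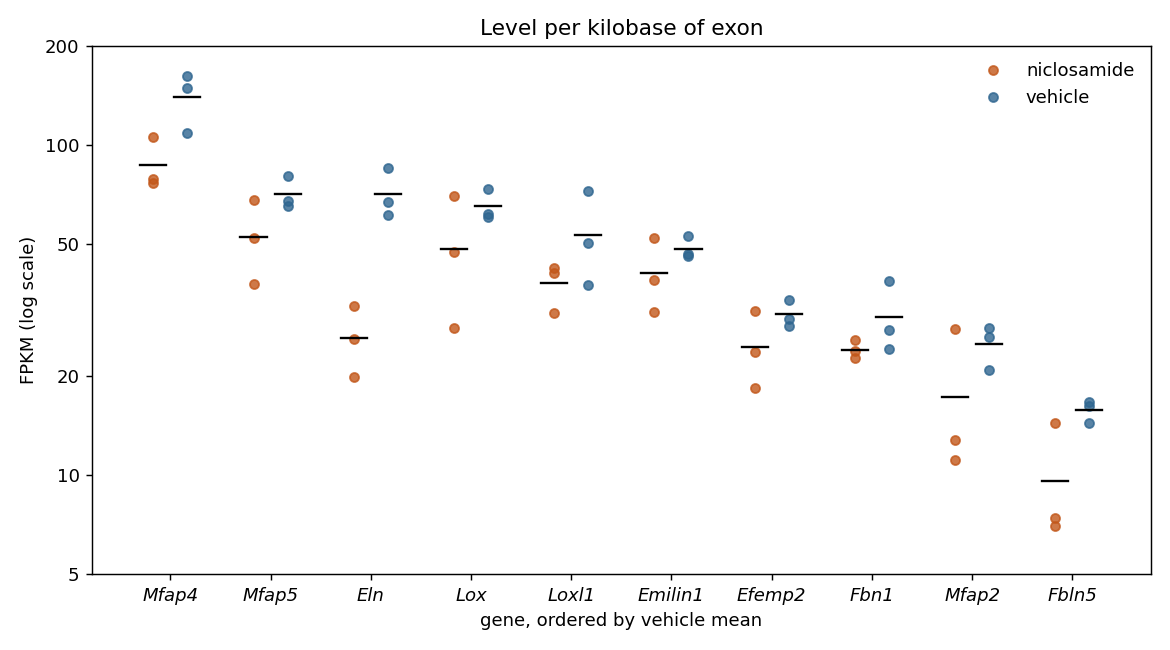
FPKM of each gene on a log axis, with niclosamide libraries left of vehicle libraries for each gene, which are ordered by their vehicle mean. Points are single libraries and bars are means of 3. *Mfap4* is highest in each group, and *Eln* is at 26.1 FPKM with niclosamide against 71.2 FPKM with vehicle.

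Ratios within a library do not depend on how the library is scaled. For *Eln* they were taken to *Fbn1*, *Emilin1*, *Lox*, *Loxl1* and *Fbln5* only, and not to the remaining genes of the set. The FPKM ratio of *Eln* to *Fbn1* was 0.776, 1.37 and 1.14 in niclosamide 1 to 3, against 2.20, 2.24 and 2.78 in vehicle 1 to 3. The ratios of *Eln* to *Emilin1* were 0.634, 0.834 and 0.495 with niclosamide, against 1.82, 1.34 and 1.26 with vehicle. In these ratios, and in those of *Eln* to *Lox* and to *Loxl1*, the groups were apart. Relative to *Fbln5* they overlapped, at 2.84, 4.40 and 1.80 in niclosamide 1 to 3 and 5.92, 3.81 and 4.03 in vehicle 1 to 3. *Eln* made up 6.05% to 8.49% of the summed FPKM of the 10 genes with niclosamide, against 11.7% to 15.1% with vehicle. Among the other pairs the groups overlapped in the ratios *Fbln5* to *Efemp2*, *Mfap2* to *Mfap5* and *Loxl1* to *Lox*.

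The niclosamide libraries differed among themselves in which genes were low. Niclosamide 1 held the lowest value of the 6 libraries for 8 of the 10 genes and niclosamide 3 for *Fbn1* and *Loxl1*. Against the vehicle mean, *Eln* was lower by 1.83, 1.11 and 1.45 on the log2 scale in niclosamide 1 to 3, so all 3 animals were low. By contrast, *Fbln5* was lower by 1.16, 1.08 and 0.13, and *Mfap2* by 1.16 and 0.96 in niclosamide 1 and 2 but higher by 0.16 in niclosamide 3. In niclosamide 3, 4 of the 10 genes (*Mfap2*, *Mfap5*, *Efemp2* and *Emilin1*) were at or above the lowest vehicle value. In niclosamide 1 it was 2 genes (*Fbn1* and *Loxl1*), and in niclosamide 2 also 2 (*Lox* and *Loxl1*).

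Smooth muscle markers were lower with niclosamide as well. All 12 markers listed, from *Acta2* to *Pgm5*, were detected and had a log2 fold change below 0, with a median of -1.19. Their groups were apart in 9, all lower. Over all genes tested 46.3% were below 0, and 6.37% were apart and lower. Their summed level was 3441, 2407 and 6244 CPM in niclosamide 1 to 3, against 9985, 7194 and 9429 CPM in vehicle 1 to 3. The mean of the list was lower than the vehicle mean by 1.59, 1.99 and 0.38 on the log2 scale in niclosamide 1 to 3. None of the defining markers was at 0. *Acta2*, *Actg2*, *Tagln* and *Cnn1* were lowest in niclosamide 1 and the other markers in niclosamide 2. *Des* had 1286, 346 and 772 CPM in niclosamide 1 to 3, and *Synpo2* had 252, 32.7 and 326 CPM. Skeletal muscle markers summed to 35556, 848 and 12556 CPM in the same libraries. The part of skeletal muscle in the mean of the smooth muscle list was not tested. *Fbln5*, *Mfap2*, *Mfap4*, *Mfap5*, *Efemp2* and *Emilin1* were lowest in the same pair of libraries as that list. The remaining genes were not: *Fbn1* and *Loxl1* were lowest in niclosamide 3. *Lox* in niclosamide 2 was 0.11 above its vehicle mean on the log2 scale, and *Eln* was lowest in niclosamide 1 and 3. In niclosamide 2 the list was further below the vehicle mean than *Eln* was (1.99 and 1.11 on the log2 scale), and in niclosamide 3 *Eln* was further below it than the list (1.45 and 0.38). In niclosamide 3 the list mean lay 0.13 below the lowest vehicle library, and *Eln* lay 1.25 below its lowest vehicle value. In bulk tissue, fewer cells of a type and less RNA per cell cannot be told apart, and the part of smooth muscle content in the values of *Eln* and the other 9 genes was not tested.

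**Figure D3:**
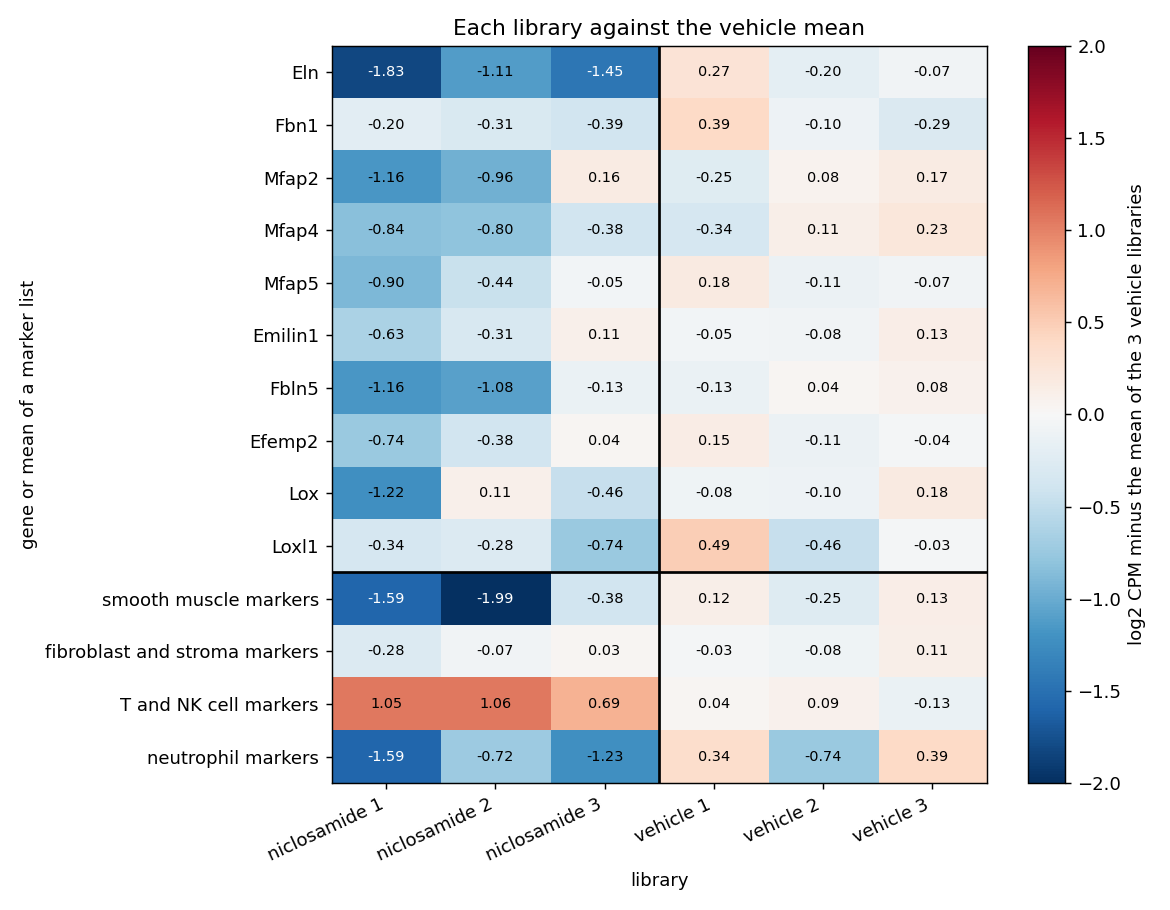
Colour map of log2 CPM minus the vehicle mean for each gene and for the mean of 4 marker lists, with niclosamide libraries left of the vertical line and vehicle libraries right of it. *Eln* is at -1.83, -1.11 and -1.45 in niclosamide 1 to 3, while *Mfap2* and *Fbln5* are at -1.16 to -0.96 in niclosamide 1 and 2 and at 0.16 and -0.13 in niclosamide 3, and the smooth muscle list is at -1.59, -1.99 and -0.38.

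Other properties of the libraries also followed the groups or single animals. Total counts were 31050619 to 33606591 in niclosamide libraries and 27797121 to 34797000 in vehicle libraries. For the marker counts that follow, 46.3% of all genes tested were below 0 and 53.7% above 0. Of the 11 fibroblast and stroma markers 6 were below 0, with a median of -0.12, and of the 8 adventitial fibroblast markers 4, with a median of -0.05; summed levels overlapped in each. T and NK cell markers were above 0 in 8 of 8, with summed levels of 391 to 576 CPM with niclosamide and 232 to 283 CPM with vehicle. Neutrophil markers were below 0 in 6 of 6, with summed levels of 204 to 309 CPM with niclosamide and 343 to 780 CPM with vehicle. The mean log2 CPM of the neutrophil list overlapped between groups. Against the vehicle mean it was at -0.72 in niclosamide 2 and -0.74 in vehicle 2. Skeletal muscle markers, a sign of recipient wall, summed to 848 to 35556 CPM with niclosamide and 4974 to 12557 CPM with vehicle, and adipocyte markers to 57.1 to 520 CPM with niclosamide and 76.6 to 201 CPM with vehicle, the highest value of each being in niclosamide 1. The 8 uterine epithelium markers were detected and summed to 325 to 1929 CPM with niclosamide and 686 to 1686 CPM with vehicle. Mesothelial, endothelial and macrophage markers overlapped between groups. All 4 structural RNAs examined, which vary with how RNA is prepared, were lower with niclosamide. The groups were apart in 3, while 6.37% of all genes tested were apart and lower. Their median log2 fold change was -2.57. The mean log2 CPM of the list did not overlap, at 1.81 to 4.56 with niclosamide and 5.14 to 6.30 with vehicle. Their summed levels overlapped, at 1827 to 6475 CPM with niclosamide and 5840 to 10503 CPM with vehicle. The part of these properties in the elastic fibre values was not tested.

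The rest of the pathway was taken from 8 lists of 68 genes, of which 66 were tested, and these lists too were drawn up with earlier results of these data known. In the edgeR fit 0 of the 66 passed in either direction, with adjusted p from 0.496 to 0.996. Unadjusted, 15 of 66 (22.7%) had p under 0.05, against 6.92% of all genes tested. DESeq2 called 2 of the 66 lower, *Ltbp1* and *Mmp9*, and 0 higher. Over all genes it gave an adjusted p, these shares were 0.696% and 0.527%. Log2 fold changes were below 0 in 43 of 66 and above 0 in 23, against 53.7% above 0 among all genes tested. The groups were apart in 14 genes lower and 2 higher with niclosamide; over all genes tested these shares were 6.37% and 5.9%.

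Other microfibril and fibulin genes had 10 of 12 below 0 with a median of -0.19. *Fbn2*, the fibrillin of developing tissue, averaged 19.9 ± 8.47 CPM with niclosamide and 37.5 ± 4.82 CPM with vehicle (SD, n = 3 each), with niclosamide 3 at 29.7 CPM again nearest to vehicle. *Emilin3* had at most 1.84 CPM in any library and a log2 fold change of -0.94 ± 0.39 (SE). The 4 latent TGF-beta binding protein genes, relatives of the fibrillins that tether TGF-beta to microfibrils, were all below 0 with a median of -0.66. *Ltbp1* had 95.3, 117 and 98.8 CPM in niclosamide 1 to 3, against 233, 233 and 242.8 CPM in vehicle 1 to 3, and, like *Eln*, was low in all 3 niclosamide animals (log2 fold change -1.19 ± 0.13 SE, edgeR adjusted p = 0.496, DESeq2 adjusted p = 4.8e-11). *Ltbp4*, whose product binds fibulin-5 and promotes elastin assembly, had 150, 144 and 256 CPM in niclosamide 1 to 3, against 315, 302 and 334 CPM in vehicle 1 to 3, which is low mainly in niclosamide 1 and 2. Among the 3 remaining lysyl oxidase genes, *Loxl2* averaged 173 ± 19.6 CPM with niclosamide and 224 ± 23.0 CPM with vehicle, without overlap, and *Loxl3* averaged 38.6 ± 1.498 CPM with niclosamide and 39.4 ± 2.71 CPM with vehicle.

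A list of secretory, metabolic and copper genes, built around lax skin (cutis laxa), had 7 of 11 below 0 and a median of -0.06. *Atp7a*, the copper pump that loads lysyl oxidases, averaged 77.2 ± 9.85 CPM with niclosamide and 57.9 ± 2.91 CPM with vehicle, with higher values in every niclosamide library (log2 fold change 0.41 ± 0.13 SE, edgeR adjusted p = 0.637). *Fkbp10*, a chaperone of collagen and the elastin precursor, averaged 84.5 ± 23.3 CPM with niclosamide and 116 ± 1.86 CPM with vehicle. In the ADAMTS family that binds microfibrils 6 of 9 were below 0, with a median of -0.23. *Thsd4*, which promotes fibrillin-1 assembly, averaged 26.1 ± 6.50 CPM with niclosamide and 41.4 ± 2.44 CPM with vehicle, and *Papln* averaged 6.39 ± 1.93 CPM with niclosamide and 13.6 ± 5.50 CPM with vehicle, with overlap.

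Proteases that can degrade elastin did not share a direction. Of the 9 tested, 4 were below 0 and the median was 0.07. *Mmp9*, a gelatinase also made by neutrophils, had 26.1, 38.6 and 21.1 CPM in niclosamide 1 to 3, against 107, 70.8 and 67.2 CPM in vehicle 1 to 3 (log2 fold change -1.51 ± 0.29 SE, edgeR adjusted p = 0.521, DESeq2 adjusted p = 0.00159). *Ctss*, the elastolytic cathepsin of antigen-presenting cells, averaged 2144 ± 942 CPM with niclosamide and 1090 ± 266 CPM with vehicle, with overlapping groups and the highest value in niclosamide 1. *Elane* and *Ctsg*, neutrophil elastase and cathepsin G, did not pass the filter, and *Elane* had 13, 10 and 36 counts in niclosamide 1 to 3, against 6, 2 and 0 counts in vehicle 1 to 3. Protease inhibitors had 3 of 7 below 0 with a median of 0.13, and in none were the groups apart. *Slpi*, an inhibitor of neutrophil elastase, ranged from 52.1 to 415 CPM with niclosamide and from 26.1 to 152 CPM with vehicle, and *Timp2* averaged 516 ± 95.6 CPM with niclosamide and 629.6 ± 142 CPM with vehicle.

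Receptors for elastin and microfibril proteins had 7 of 11 below 0 with a median of -0.19. *Itga8*, an integrin chain of smooth muscle and stroma whose dimer binds fibronectin and related matrix proteins, had 32.8, 126 and 64.0 CPM in niclosamide 1 to 3, against 159, 276 and 294 CPM in vehicle 1 to 3, without overlap (log2 fold change -1.71 ± 0.51 SE, edgeR adjusted p = 0.619). *Itga9*, part of a receptor for EMILIN1, averaged 79.3 ± 12.1 CPM with niclosamide and 112 ± 14.3 CPM with vehicle. The 3 genes of the elastin receptor complex, *Glb1*, *Neu1* and *Ctsa*, had log2 fold changes of 0.19, 0.01 and 0.27 with overlapping groups.

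**Figure D4:**
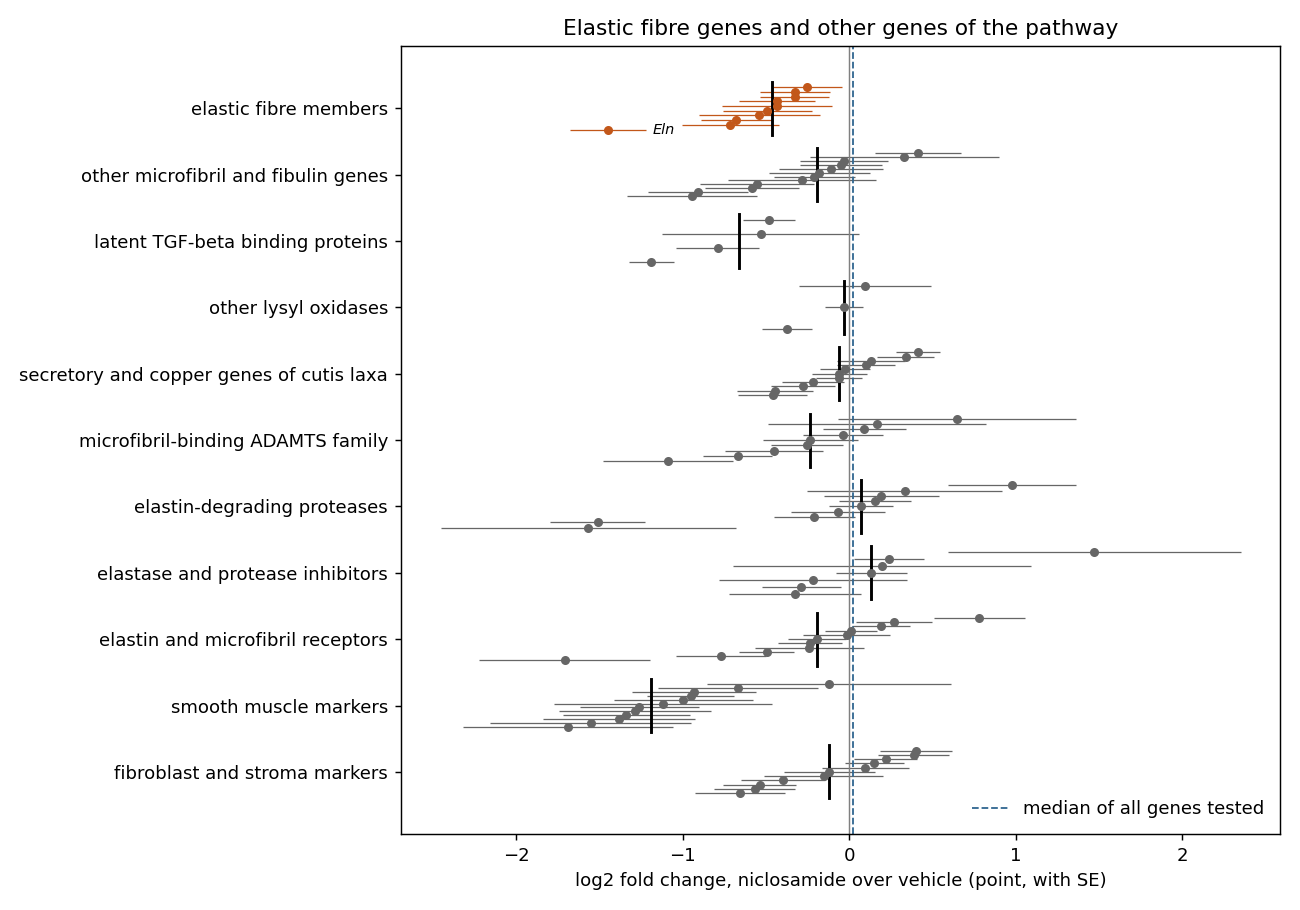
Log2 fold change of niclosamide over vehicle with its SE for each tested gene, by list, where the black bar is the median of a list and the dashed line the median of all genes tested. The 10 elastic fibre genes, in orange, are all left of 0 with a median of -0.46, while proteases and inhibitors spread to each side.

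The genes whose profile lay nearest to that of *Eln* were found by the root-mean-square difference in log2 CPM over the 6 libraries, after centring each gene on its mean. Predicted genes, antigen receptor segments and genes under a mean log2 CPM of 1 were left out. The nearest were *Rasl11a*, *Nrtn*, *Nup62cl*, *Fam179a*, *Tubb4a*, *Rasl11b*, *Mmp9* and *Ltbp1*, at differences of 0.16 to 0.24. *Rasl11b*, a small GTPase gene, averaged 19.9 ± 5.45 CPM with niclosamide and 42.8 ± 4.60 CPM with vehicle (SD, n = 3 each), and *Nrtn*, which encodes the neurotrophic factor neurturin, averaged 3.12 ± 0.90 CPM with niclosamide and 8.94 ± 0.867 CPM with vehicle. None of the other 9 elastic fibre genes was as near: their differences from *Eln* ran from 0.53 for *Lox* to 0.65 for *Emilin1*. Among all genes tested, these differences ranked from 550 for *Lox* to 1805 for *Emilin1*, where low ranks are near. The measure is dominated by the difference between the groups and is a description of 6 libraries.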

How the data were processed

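RNA-seq was available for 3 niclosamide and 3 vehicle libraries. The deposited values are whole-number counts per gene symbol, made by the authors, per the file headers, with featureCounts 1.4.6-p4 over exons with the reverse-stranded setting, from STAR alignments to GRCm38.p3. The counting command carries no option to keep multi-mapped or ambiguous reads. No exon of another gene on the same strand overlaps an exon of the 10 genes. The submitters' processing notes name Trimmomatic 0.33, STAR 2.4.2a and edgeR 3.12.0.

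Here edgeR 4.0.16 in R 4.3.3 was used with filterByExpr (minimum count 10, minimum total 15), TMM scaling and a robust quasi-likelihood fit with the group as its only term, over all 17364 genes kept. SE is the size of a log2 fold change divided by the root of its F statistic. List means use log2 CPM with a prior count of 2. Total counts are 27797121 to 34797000, and a count of 3, the limit that a count of 0 allows, is 0.0862 to 0.108 CPM, which covers counting error only. No pair of libraries held identical counts. The labels name separate mice for the libraries, with vehicle 1 a pool of 4 mice. P-values therefore measure spread between libraries, and the fit treated the pool like a library of 1 mouse. The procedure was tested on simulated counts. The annotated exon length in the files is given per the file headers.

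The elastic fibre genes and all lists were chosen with earlier results of these data known. All 10 genes are named, with the 2 genes of smallest edgeR p in each pathway list, any that DESeq2 1.42.0 called, and the 8 genes nearest to *Eln*; *Glb1*, *Neu1*, *Ctsa*, *Elane* and *Ctsg* were named after their values were seen. Alternatives were RLE, upper-quartile and no scaling, DESeq2, limma-voom (limma 3.58.1), no filter on low counts, a stricter filter (3 libraries at 1 CPM or more), an adjusted p threshold of 0.10, a block for the replicate number, and fits without each library in turn.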

Additional observations from a re-analysis of the deposited data

How the results depend on the processing

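All 10 elastic fibre genes kept a log2 fold change below 0 under each of the 14 other fits. The median of the 10 was -0.51 to -0.45 under the other scalings, tools and filters, and -0.59 to -0.35 with a library left out. For *Eln* the log2 fold change was -1.65 to -1.29 over all fits. The count of the 10 genes whose groups did not overlap, all lower, was 3 (6.37% of all genes tested were apart and lower). It was 1 with upper-quartile scaling (*Eln*, with 6.63% of all genes), and 2 with library totals alone (*Eln* and *Fbn1*, with 8.01%). With a library left out it was 3 to 7, with 8.93% to 15.1% of all genes, 7 being without niclosamide 3 (13.5% of all genes) and 5 without vehicle 2 (10.1%). The number of genes called was 0 in the main fit, 195 by DESeq2 and 1 with no filter on low counts, where more genes were tested, and 0 with any library left out. Of the 66 other pathway genes 0 were called, and DESeq2 called 2, against 1.22% of all genes it gave an adjusted p. With a library left out, 3 of the 8 pathway list medians changed sign. The protease inhibitors ran from -0.21 (without niclosamide 1) to 0.34 (without vehicle 1). Their median was also below 0 by limma-voom (-0.06), with the stricter filter (-0.05) and with the replicate block (-0.07). The proteases ran from -0.04 (without vehicle 2) to 0.26 (without vehicle 1), and the list built around cutis laxa from -0.14 (without niclosamide 2) to 0.03 (without niclosamide 3). Without niclosamide 2 the medians were -0.00406 for the ADAMTS family, -0.35 for the remaining lysyl oxidases and -0.37 for the receptors, which were at -0.03 without niclosamide 1. The ADAMTS family was at -0.39 without niclosamide 3, and the other microfibril and fibulin genes at -0.34 without vehicle 2. The cause of the difference between DESeq2 and edgeR was not tested. With the replicate number as a block, 0 genes were called and the median of the 10 was -0.50. Samples of the same number share only that number: the correlations of their deviations from the group means were -0.08, -0.09 and 0.27. With 3 libraries per group, one of them pooled, single animals set much of the spread, and *Emilin3* rests on 16 to 67 reads per library.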
